A study of Mus musculus with 3 samples.

Results

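The 9 genes described here encode the colony-stimulating factors and their receptors: Csf1, Il34, Csf1r, Csf2, Csf2ra, Csf2rb, Csf2rb2, Csf3 and Csf3r. They were taken by gene symbol, 1 row each, from matrices of 32285 genes, and all 9 had reads in at least 1 library. CSF1 and IL-34 are the ligands of CSF1R, the receptor tyrosine kinase that macrophages need for survival. IL-34 made by keratinocytes maintains the Langerhans cells of the epidermis. CSF2 (GM-CSF), a product of activated lymphocytes and many stressed tissue cells, binds CSF2RA together with the beta chain CSF2RB, which the IL-3 and IL-5 receptors share, and signals through JAK2 and STAT5. Mice carry another beta chain gene, Csf2rb2, whose product serves the IL-3 receptor. CSF3 (G-CSF) acts through CSF3R, drives the production of neutrophils in the bone marrow and prolongs their survival.

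The study examined how ultraviolet B (UVB) light and the enzyme Cox-2 alter inflammation in mouse skin. Dorsal skin of C57Bl/6 males aged 8 weeks, with hair follicles in telogen (the resting phase), was digested, CD45+ immune cells were enriched on magnetic beads, and single cells were sequenced on the 10x Genomics platform. The WTctrl library was from WT skin without UVB, the WTUV library from WT skin after 3 UVB exposures with 1 exposure every other day, and the RPUV library from RP skin after the same 3 exposures. RP mice carry Rosa26-rtTA and Tre-Ptgs2, so that doxycycline induces rat Ptgs2, the Cox-2 gene, throughout the body and not in a chosen cell type. Both irradiated libraries were collected on day 5. Each group was 1 library, so no value below has a replicate check and no test between groups was possible. Intervals are 95% intervals for counting error only.

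Between 5225 and 6070 cells were kept per library, with 25795684 UMIs in WTctrl, 64556621 in WTUV and 29128981 in RPUV. UMIs are the molecular tags that mark single captured transcripts. The median cell held 4246 UMIs in WTctrl, 10557 in WTUV and 3774 in RPUV. Identifiers of the raw data place WTctrl and RPUV on one sequencing run and WTUV on another, so run and group cannot be told apart in any comparison with WTUV. The libraries shared 7 to 9 cell barcodes pairwise among the kept cells. Mouse Ptgs2 reads in keratinocytes stood at 5.70 counts per 1000000 UMIs (CPM) in WTctrl, 6.55 in WTUV and 661 in RPUV, although how much of the rat transgene maps to the mouse gene was not tested. Cells were grouped in 140 clusters, of which 104 took a class name from marker genes and 36 did not. Class names are therefore rebuilt from markers and are given as X-like. Despite the enrichment, 1108 keratinocyte-like cells remained in WTctrl, 466 in WTUV and 929 in RPUV. Fibroblast-like cells numbered 312, 7 and 262.

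The genes lie apart on the mouse genome except for the pair of beta chains. In GRCm38.p6, the RefSeq form of the mm10 build used for these files, Csf2rb spans chr15:78325800-78351001 and Csf2rb2 chr15:78282507-78305721. Csf1 spans chr3:107741048-107760469 and Il34 chr8:110741829-110805949. Csf2 spans chr11:54247270-54249899 and Csf3 chr11:98700183-98703631. Csf2ra spans chr19:61217191-61228461 and Csf3r chr4:126023441-126044975.

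The regulatory sequence just before the start site was read for the members that RefSeq promoter entries of this build covered, 5 of 9. The 250 bases before the start of Csf1 are shown because neutrophils carried it, those of Csf2 because this ligand stood 14.1 times lower in RPUV than in WTUV, and those of Csf2rb2 because it varied together with Csf2rb. Each is written in the direction of the gene, with 1 motif match in capitals: an NF-kB motif in Csf1, a C/EBP motif in Csf2 and the PU.1 core in Csf2rb2.
Csf1, chr3:107760470-107760719, minus strand: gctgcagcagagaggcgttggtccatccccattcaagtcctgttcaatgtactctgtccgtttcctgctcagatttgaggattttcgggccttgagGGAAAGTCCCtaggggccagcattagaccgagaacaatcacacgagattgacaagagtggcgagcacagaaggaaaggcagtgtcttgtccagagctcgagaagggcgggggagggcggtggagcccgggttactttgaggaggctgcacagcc
Csf2, chr11:54249900-54250149, minus strand: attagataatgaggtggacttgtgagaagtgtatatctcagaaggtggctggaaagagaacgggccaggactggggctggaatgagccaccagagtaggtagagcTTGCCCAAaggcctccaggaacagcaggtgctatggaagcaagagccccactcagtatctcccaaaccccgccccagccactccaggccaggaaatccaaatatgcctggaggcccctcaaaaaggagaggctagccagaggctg
Csf2rb2, chr15:78305722-78305971, minus strand: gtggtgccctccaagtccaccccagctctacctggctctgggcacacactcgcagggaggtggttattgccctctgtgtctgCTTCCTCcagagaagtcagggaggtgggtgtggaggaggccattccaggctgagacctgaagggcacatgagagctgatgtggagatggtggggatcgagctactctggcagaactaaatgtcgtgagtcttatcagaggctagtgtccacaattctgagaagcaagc
The motifs were searched on both strands. The NF-kB motif is in 0.980% of 32851 windows of this length and matched in Csf1 at -154, counted from the start site. The C/EBP motif TTGCNNAA is in 9.56% of windows and matched in Csf2 at -145. The PU.1 core GAGGAAG, which PU.1 (Spi1) of the myeloid lineage can bind, is in 10.6% of windows and matched in Csf2rb2 at -168, in Csf3r at -86 and in Csf2ra at -14 and -8. The core was thus in all 3 receptor windows and in neither ligand window. The core TGACG of the cyclic AMP response element is in 17.8% of windows and matched in Csf2ra alone, at -185, -92 and -89. The NFAT core GGAAA is in 55.6% of windows and matched in every one of the 5 except Csf2rb2, and its match at -154 in Csf1 lies inside the NF-kB match. The AP-1 motif TGANTCA is in 6.75% of windows and matched in none of the 5. Neither did the TATA motif TATAAA, which 12.4% of windows hold. These are matches of letters and show no binding.

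Across whole libraries, more of the 9 genes differed between groups than within the cell class fixed for each gene, as given below. This does not hold for every class, since all 9 were measured in whole libraries and fewer in most classes. A gene was counted as past 2-fold where its CPM differed by more than 2-fold either way and both libraries held at least 20 of its UMIs together. In WTUV against WTctrl, 6 of the 9 members were past 2-fold, beside 21.1% of all genes so measured: Csf1 and Il34 were lower in WTUV, and Csf2, Csf2rb, Csf3 and Csf3r were higher. In RPUV against WTUV there were 4 of 9 (all genes 26.0%): Csf1, Il34 and Csf3 were higher in RPUV and Csf2 was lower. In RPUV against WTctrl there were also 4 of 9 (all genes 16.3%): Csf1, Csf3 and Csf3r were higher and Csf2 was lower. In such whole-library values, fewer cells of a type and less RNA per cell cannot be told apart, and the cell make-up differed widely. Neutrophil-like cells numbered 20 in WTctrl, 75 in WTUV and 571 in RPUV, alpha beta T-like cells 254, 355 and 27, and gamma delta T-like cells 76, 222 and 24. Values within a class therefore follow for each gene, with WTctrl, WTUV and RPUV always in this order.

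**Figure D1:**
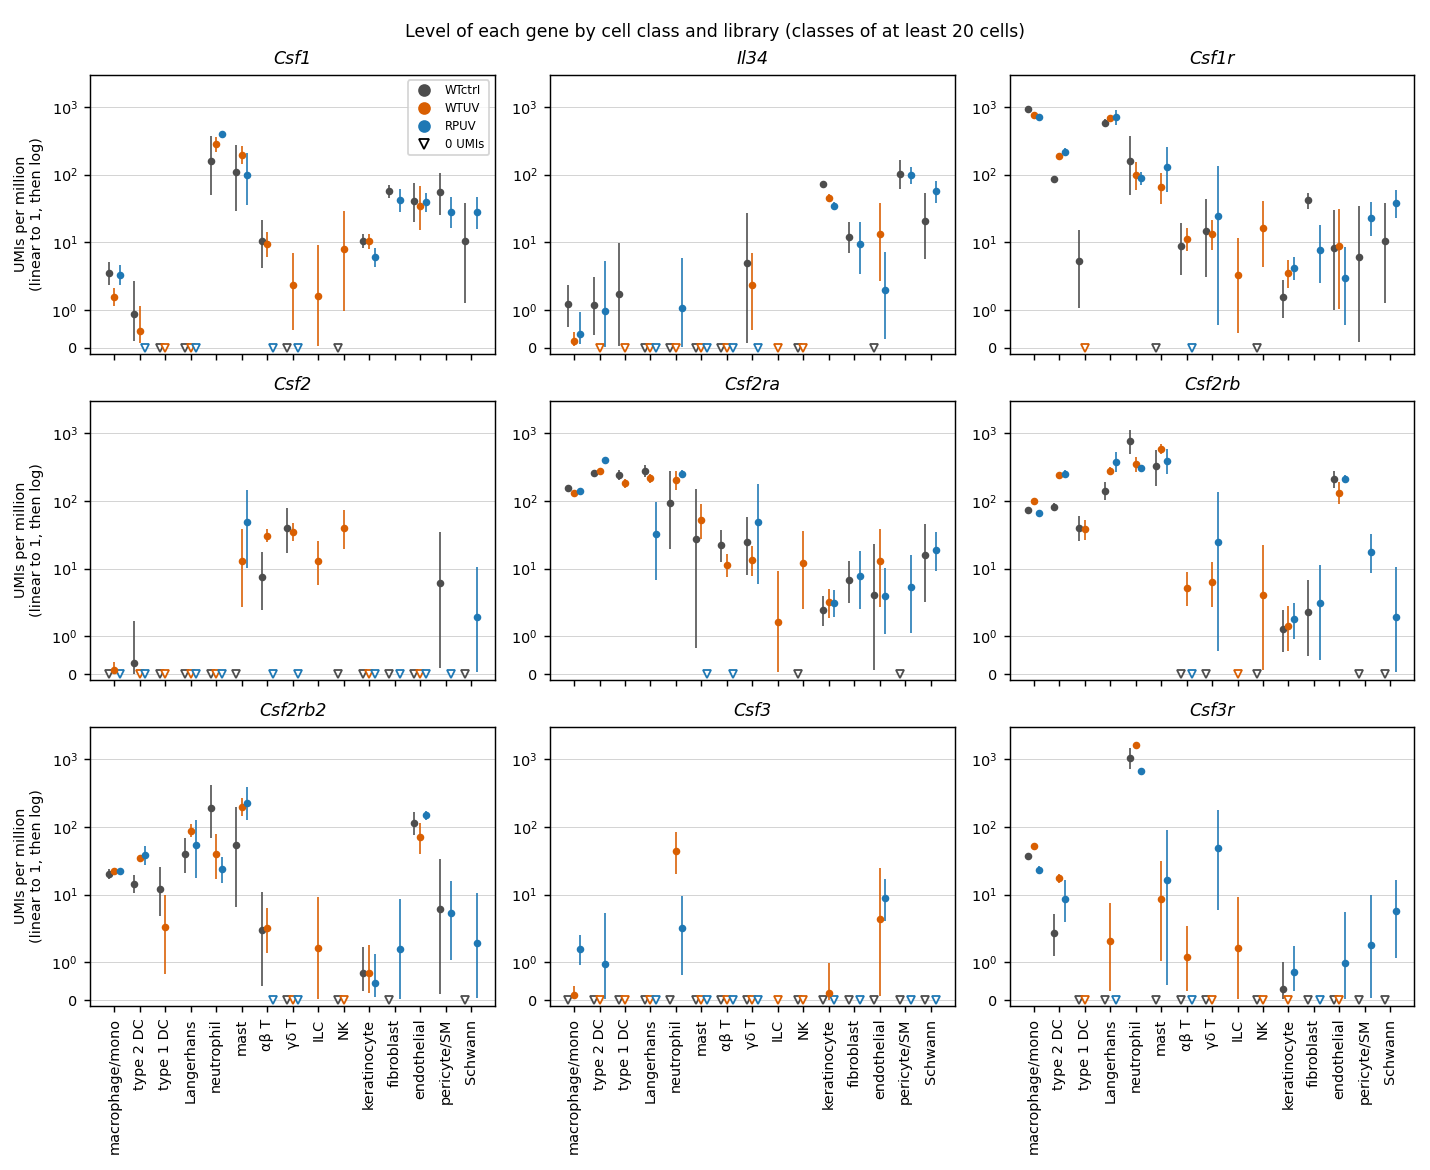
Level of each of the 9 genes (CPM, axis linear to 1 and logarithmic above) in each cell class with at least 20 cells, with 1 marker per library, counting intervals as bars and open triangles for 0 UMIs. Il34 is highest in keratinocyte-like, pericyte-like and Schwann-like cells, Csf1r in macrophage-like and Langerhans-like cells, and Csf3r in neutrophil-like cells.

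Within the 1 class fixed for each gene (keratinocyte-like for Il34, fibroblast-like for Csf1, macrophage- or monocyte-like for Csf1r, Csf2ra, Csf2rb and Csf2rb2, neutrophil-like for Csf3r, the whole library for Csf2 and Csf3), fewer members were past 2-fold. These were Csf2 and Csf3, both higher, for WTUV against WTctrl. They were Csf3, higher, and Csf2 and Csf3r, both lower, for RPUV against WTUV, and Csf3, higher, and Il34 and Csf2, both lower, for RPUV against WTctrl. For Csf2 and Csf3 these are the same whole-library values as in the count above, with the same shares of all genes. Of the members fixed to a cell class, none was past 2-fold in WTUV against WTctrl. Only Csf3r was in RPUV against WTUV, and only Il34 in RPUV against WTctrl. The classes differ between members, so no single background applies, and the share of all genes past 2-fold is given below with each class.

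**Figure D2:**
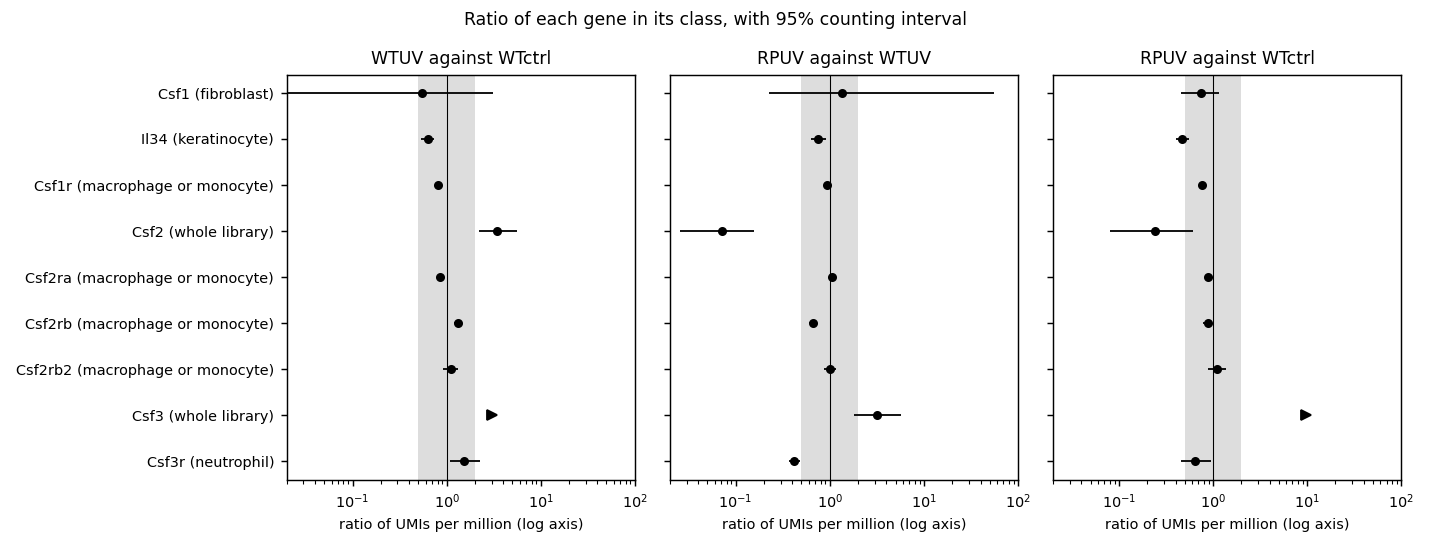
Ratio of CPM between libraries (logarithmic axis) for each of the 9 genes in its fixed class, with 1 panel per comparison, 95% counting intervals as bars, the range from 0.5 to 2 in grey, and right-pointing triangles for lower bounds against 0 UMIs. Of the receptors, only Csf3r lies outside the grey range, in RPUV against WTUV, while the 4 that were read in macrophage-like cells stay inside it in all 3 panels.

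Csf1, the ligand made by fibroblasts, endothelium and many other cells, was read from different cells in the 3 libraries. The whole-library level was 11.98 CPM (10.7 to 13.4) in WTctrl, 5.82 CPM (5.25 to 6.44) in WTUV and 28.2 CPM (26.3 to 30.2) in RPUV. WTUV was thus lowest and RPUV highest, at 4.85 times WTUV (4.28 to 5.49) and 2.36 times WTctrl (2.06 to 2.69). Taken as the mean over cells of CPM per cell, however, WTUV was not below WTctrl (log2 ratio 0.10). In WTctrl, fibroblast-like cells gave 24.3% of the Csf1 UMIs and keratinocyte-like cells 23.9%. In WTUV the named sources were keratinocyte-like cells with 15.7%, neutrophil-like cells with 15.2%, basophil-like cells with 12.5% and mast-like cells with 11.97%. In RPUV neutrophil-like cells, 9.41% of the cells, gave 45.9% (42.5 to 49.3) of the Csf1 UMIs, while clusters without a name gave 31.9%.

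Neutrophil-like cells carried Csf1 in every library. Their level was 157 CPM (51.0 to 366) from 5 UMIs in WTctrl, 281 CPM (213 to 364) in WTUV and 405 CPM (365 to 448) in RPUV. RPUV stood at 1.44 times WTUV (1.09 to 1.94), but within cluster 50, the neutrophil-like cluster with at least 20 cells of both, the ratio was 1.0025 (0.613 to 1.61). In cells thinned to 1000 UMIs, 13.3% in WTctrl, 23.0% in WTUV and 24.8% in RPUV held a Csf1 UMI, against 0.274%, 0.0429% and 0.284% of macrophage- or monocyte-like cells. Without thinning, 4 of 20 neutrophil-like cells in WTctrl, 26.7% in WTUV and 30.8% in RPUV held one, and their median depth was 1266.5, 3066 and 1312 UMIs. The share of cells with a Csf1 UMI was thus higher in the neutrophil-like than in the macrophage-like class, and the part of free RNA was not tested. Cluster 50 held 36 of the 571 RPUV cells of the neutrophil-like class and 59 of the 75 WTUV cells. It showed no difference between the irradiated libraries beyond counting error, but its interval includes the class ratio of 1.44. Most RPUV cells, 383, lay in cluster 48, which stood at 448 CPM with libraries summed.

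Fibroblast-like cells, the class fixed for Csf1, stood at 57.1 CPM (44.9 to 71.5) in WTctrl and 42.1 CPM (27.8 to 61.3) in RPUV, and WTUV held 1 UMI in 7 such cells. RPUV was at 0.738 times WTctrl with an interval from 0.457 to 1.16 that includes 1, and 17.5% of all genes were past 2-fold in this class and comparison. Different clusters held the class in these libraries, and they differed in Csf1: cluster 70, with 102 WTctrl cells, stood at 84.4 CPM there, and cluster 79, with 156 RPUV cells, at 9.26 CPM on 3 UMIs. Summed fibroblast transcripts of the class were 99284 CPM in WTctrl and 13523 CPM in RPUV, so that the class was far less marked by them in RPUV, and their part in the Csf1 values was not tested. Cluster 71, whose best-scoring markers were those of fibroblasts but which stayed unnamed as deep and mixed, held more Csf1 than the class, at 338 CPM (254 to 443) on 26 WTctrl cells and 208 CPM (167 to 257) on 68 RPUV cells. The direction depended on the class boundary, with log2 ratios of -0.44 as given and 0.43 when classes were set from the marker UMIs of each cell. Basophil-like cells reached 638 CPM (468 to 848) in the 13 cells of WTUV, and mast-like cells stood at 108, 195 and 97.3 CPM. Endothelial-like cells stood at 41.3, 35.0 and 39.4 CPM, on 10, 8 and 40 UMIs. Keratinocyte-like cells stood at 10.6, 10.4 and 6.00 CPM, with RPUV at 0.569 times WTctrl (0.377 to 0.847). Langerhans-like cells held no Csf1 UMI in any library, which allows up to 9.10, 3.11 and 32.5 CPM (3 counts).

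Il34, the CSF1R ligand of the epidermis, came mostly from keratinocyte-like cells and was lower in both irradiated libraries. These cells gave 82.7% of the Il34 UMIs in WTctrl, 74.1% in WTUV and 56.8% in RPUV. Whole libraries stood at 24.0, 5.44 and 13.97 CPM, and the log2 ratio of RPUV to WTUV was 1.36 for the kept cells but 0.24 with all deposited barcodes. In keratinocyte-like cells the level was 73.1 CPM (67.0 to 79.8) in WTctrl, 46.0 CPM (40.6 to 52.0) in WTUV and 34.7 CPM (30.3 to 39.4) in RPUV. The 3 intervals do not overlap, and the ratios were 0.629 (0.540 to 0.732) for WTUV against WTctrl, 0.753 (0.628 to 0.903) for RPUV against WTUV and 0.474 (0.404 to 0.555) for RPUV against WTctrl. The last was short of 2-fold, at -0.84 in log2, with classes from the marker UMIs of each cell. Il34 was the only member past 2-fold downward in keratinocyte-like cells in RPUV against WTctrl, where 20.4% of all genes were past 2-fold either way, and Csf1r, at 1.57, 3.54 and 4.202 CPM, was the only one upward. Transcripts of macrophages (8 genes such as C1qa and Mrc1) had the same order in these cells, with sums of 64.3, 118 and 295 CPM. Their part in the Csf1r values was not tested. In WTUV against WTctrl, where Csf1r was the 1 member of 4 measured past 2-fold, the share of all genes was 7.68%. In RPUV against WTUV no measured member was (all genes 12.2%).

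The lower Il34 level in RPUV was seen in both layers of the epidermis but not in every cluster. Clusters named by basal markers stood at 32.9, 22.8 and 15.7 CPM, and those named by suprabasal markers, from differentiating cells, at 121, 69.7 and 60.1 CPM, so that RPUV was at 0.477 times WTctrl (0.345 to 0.654) in the first and 0.498 times (0.414 to 0.598) in the second. In cluster 37, however, the levels were 128, 107 and 142 CPM, with RPUV at 1.11 times WTctrl (0.678 to 1.73) on 22 cells. Shared clusters with at least 20 Il34 UMIs had WTUV to WTctrl ratios from 0.528 in cluster 40 to 1.09 in cluster 43. Every interval of these included 1. For RPUV against WTctrl only the interval of cluster 58 excluded 1, at 0.341 (0.103 to 0.895). The difference of the class was thus not shown inside most shared clusters. Per cell, 13.3% of keratinocyte-like cells in WTctrl, 5.93% in WTUV and 5.22% in RPUV held an Il34 UMI after thinning to 2000 UMIs, against 0.503%, 0.0881% and 0% of macrophage- or monocyte-like cells. Unthinned, the shares were 29.2%, 27.3% and 17.4% of keratinocyte-like cells at median depths of 6052.5, 7866.5 and 6210 UMIs. Thinning thus kept WTctrl highest and brought the irradiated libraries close to each other.

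Outside the epidermis, pericyte-like cells held Il34 at 104, 69.8 and 98.1 CPM, with RPUV at 0.945 times WTctrl (0.540 to 1.74), and gave 13.5% of the Il34 UMIs in RPUV. Schwann-like cells stood at 20.8, 108 and 57.2 CPM, of which the second rests on 7 UMIs. Langerhans-like cells, which depend on IL-34, held no Il34 UMI themselves, with the same limits as for Csf1.

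**Figure D3:**
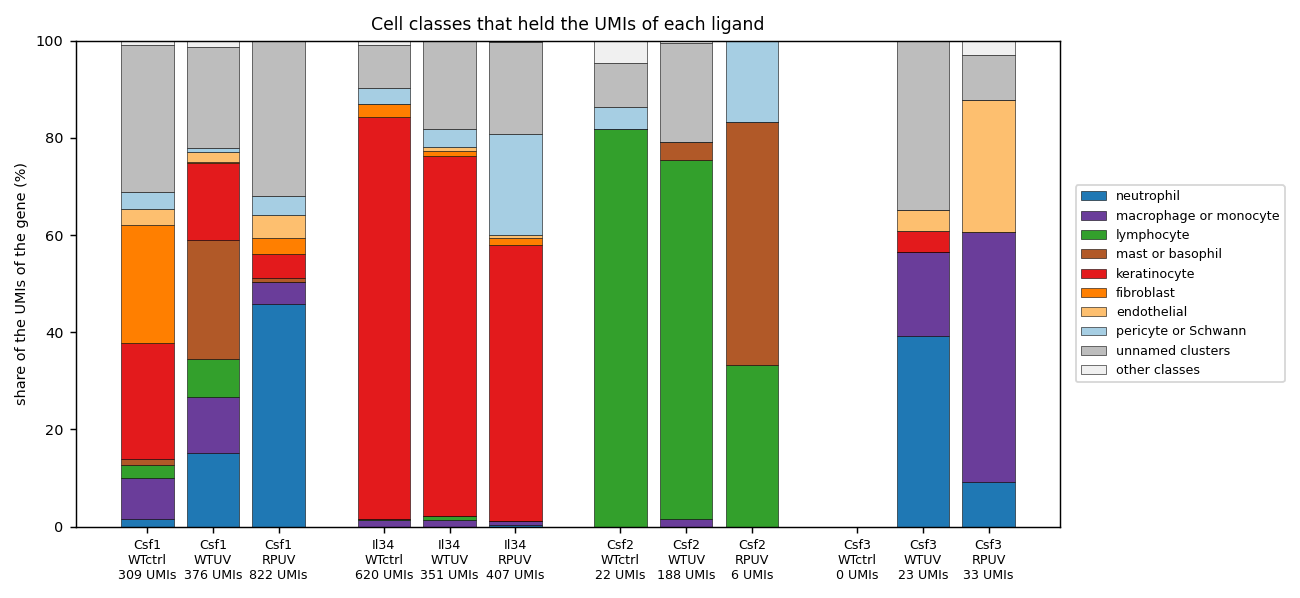
Share of the UMIs of each ligand (percent, stacked to 100) that came from each cell class, in 1 bar per library for Csf1, Il34, Csf2 and Csf3. Neutrophil-like cells make up 45.9% of the Csf1 bar of RPUV, keratinocyte-like cells lead all 3 Il34 bars, and the Csf2 bar of RPUV and the Csf3 bars rest on 6, 23 and 33 UMIs.

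Csf1r, the receptor of both ligands, was high in macrophage- or monocyte-like and in Langerhans-like cells. The levels in macrophage- or monocyte-like cells were 922 CPM (900 to 944) in WTctrl, 754 CPM (743 to 764) in WTUV and 702 CPM (687 to 718) in RPUV. WTctrl was highest, and WTUV was at 0.818 times (0.795 to 0.841) and RPUV at 0.762 times (0.737 to 0.788) its level. No ratio of the 4 receptors fixed to this class was past 2-fold in any comparison, and of all genes 10.4% were in WTUV against WTctrl, 11.5% in RPUV against WTUV and 13.7% in RPUV against WTctrl. The libraries share few macrophage clusters: clusters 0 and 5 were mostly WTctrl, 1, 3, 7, 19, 21 and 22 mostly WTUV, and 2, 6, 8, 18, 20 and 23 mostly RPUV. Within clusters that held cells of both, WTUV against WTctrl ranged from 0.797 in cluster 5 to 1.44 in clusters 24 and 130, and cluster 17 stood at 975, 854 and 991 CPM. Clusters named by monocyte markers were below those named by macrophage markers in each library, at 321, 512 and 429 CPM against 949, 797 and 708 CPM.

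Type 2 dendritic-like cells, which also arise from the bone marrow, differed in the other direction for Csf1r. Their level was 85.4 CPM (75.7 to 96.0) in WTctrl, 190 CPM (181 to 200) in WTUV and 217 CPM (190 to 248) in RPUV. WTctrl was lowest by a wide margin, with ratios of 2.23 (1.96 to 2.54) for WTUV and 2.55 (2.13 to 3.05) for RPUV, whereas RPUV against WTUV was 1.14 (0.989 to 1.31). The cells of this class with a Csf1r UMI made up 17.2%, 25.6% and 33.7% after thinning to 2000 UMIs, against 0.204%, 0.565% and 0.549% of keratinocyte-like cells. Unthinned, they were 35.0%, 80.3% and 59.2% at median depths of 5964.5, 17383 and 5536 UMIs. In cluster 10 the levels were 107, 132 and 222 CPM, in cluster 12 they were 73.0 and 121 CPM in WTctrl and WTUV, and in cluster 13 they were 70.0, 106 and 108 CPM. All 3 clusters shared by WTctrl and WTUV had ratios above 1, at 1.23 (0.982 to 1.55), 1.66 (1.24 to 2.21) and 1.51 (1.08 to 2.15). All were smaller than that of the class, and cluster 11, at 255 CPM in WTUV and 254 CPM in RPUV, had fewer than 20 WTctrl cells.

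Langerhans-like cells held Csf1r at 576, 679 and 704 CPM and numbered 69, 68 and 23, so that the receptor was high in the few that were left in RPUV. Neutrophil-like cells stood at 157, 98.5 and 88.0 CPM, the first on 5 UMIs.

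Csf2, the GM-CSF gene, was the most sparsely read ligand after Csf3, and in WTctrl and WTUV it came mainly from lymphocyte-like cells. The 22 UMIs of WTctrl lay in 19 cells, the 188 of WTUV in 82 cells and the 6 of RPUV in 3 cells. These gave 0.853 CPM (0.534 to 1.29) in WTctrl, 2.91 CPM (2.51 to 3.36) in WTUV and 0.206 CPM (0.0756 to 0.448) in RPUV. WTUV was highest and RPUV lowest, with ratios of 3.41 (2.19 to 5.58) for WTUV against WTctrl, 0.0707 (0.0256 to 0.157) for RPUV against WTUV and 0.242 (0.0801 to 0.614) for RPUV against WTctrl. Leaving out the cell with the most Csf2 UMIs in each library gave 3.32 (2.08 to 5.57) for WTUV against WTctrl and 0.0401 (0.00818 to 0.119) for RPUV against WTUV.

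The number of lymphocyte-like cells moved with these levels, at 368 in WTctrl, 686 in WTUV and 66 in RPUV. Over all lymphocyte-like cells, Csf2 stood at 18.3 CPM (10.8 to 28.9) in WTctrl, 29.9 CPM (25.2 to 35.4) in WTUV and 16.8 CPM (2.03 to 60.6) in RPUV, the last on 2 UMIs. WTUV was at 1.64 times WTctrl (0.9998 to 2.85), and a lower level per lymphocyte-like cell in RPUV was not detectable at this depth. Alpha beta T-like cells stood at 7.47 CPM (2.43 to 17.4) in WTctrl, 30.7 CPM (24.2 to 38.4) in WTUV and 0 (0 to 73.3) in RPUV. Their WTUV value rests on 15 of 355 cells, of which 2 cells with 22 and 20 UMIs held 42 of the 77 UMIs. Gamma delta T-like cells were more evenly spread, with 33 of 222 cells positive in WTUV, and stood at 39.5 CPM (17.1 to 77.9), 34.5 CPM (25.1 to 46.3) and 0 (0 to 90.3).

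The Csf2-positive cells of WTUV also carried other lymphocyte cytokines. Among alpha beta T-like cells, Il13 was found in 7 of 15 positive cells against 58 of 340 others, Il5 in 3 of 15 against 16 of 340 and Il17f in 2 of 15 against 11 of 340. In the same cells Ifng was found in 7 of 15 against 129 of 340 and Il2 in 8 of 15 against 117 of 340, and the median depths were 8228 and 5485.5 UMIs. Among gamma delta T-like cells, Ifng was found in 5 of 33 against 7 of 189, Il13 in 4 of 33 against 23 of 189 and Il17a in 1 of 33 against 6 of 189, at median depths of 6010 and 5018 UMIs. In innate lymphoid-like cells 6 of 6 positive cells held Il13, but so did 62 of 72 others, and Il13 was a marker that named this class. In both T-like classes the positive cells were also the deeper ones, and no share was tested. Outside the lymphocyte-like classes, clusters without a name held 38 of the 188 Csf2 UMIs of WTUV. Of these, 16 lay in cluster 83, whose best-scoring markers were those of type 2 dendritic cells. A basophil-like cell of WTUV held 4, and mast-like cells held 3 in WTUV and 3 in RPUV. Keratinocyte-like, neutrophil-like and Langerhans-like cells held none, which for keratinocyte-like cells allows up to 0.428, 0.531 and 0.450 CPM (3 counts).

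Csf2ra, the ligand-binding chain of the GM-CSF receptor, was shared by macrophage-like, dendritic-like, Langerhans-like and neutrophil-like cells. In macrophage- or monocyte-like cells it stood at 154 CPM (145 to 163) in WTctrl, 130 CPM (126 to 134) in WTUV and 138 CPM (131 to 145) in RPUV. The ratios were 0.846 for WTUV against WTctrl and 1.06 for RPUV against WTUV. Type 2 dendritic-like cells were higher, at 254 CPM (237 to 272), 279 CPM (268 to 290) and 394 CPM (357 to 434). RPUV was highest in the dendritic-like class, at 1.41 times WTUV (1.27 to 1.57) and 1.55 times WTctrl (1.38 to 1.75), both short of 2-fold. Cluster 10 showed the same order at 371, 375 and 459 CPM, and cluster 13 stood at 154, 138 and 260 CPM.

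Langerhans-like cells went the other way for Csf2ra. They stood at 276 CPM (222 to 339) in WTctrl, 214 CPM (186 to 245) in WTUV and 32.5 CPM (6.70 to 94.97) in RPUV. The last value rests on 3 UMIs in 23 cells and was 0.152 times WTUV (0.0311 to 0.451), while Csf1r in the same cells was not lower. Most WTctrl cells of this class lay in other clusters than most cells of the irradiated libraries, as given below for Csf2rb. Neutrophil-like cells stood at 202 CPM in WTUV and 249 CPM in RPUV, and at 94.2 CPM on 3 UMIs in WTctrl. Type 1 dendritic-like cells stood at 238, 181 and 173 CPM.

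Csf2rb, the signalling beta chain, was lower in the dendritic-like cells of WTctrl than in those of both irradiated libraries. Type 2 dendritic-like cells held 81.1 CPM (71.7 to 91.5) in WTctrl, 243 CPM (233 to 254) in WTUV and 249 CPM (220 to 282) in RPUV. WTUV and RPUV stood at 3.00 times (2.64 to 3.41) and 3.07 times (2.58 to 3.66) WTctrl, with intervals that overlap each other. In the class as a whole, 4 of the 5 measured members were past 2-fold in WTUV against WTctrl (Csf1r, Csf2rb, Csf2rb2 and Csf3r, all higher), beside 9.65% of all genes. In RPUV against WTctrl, 3 of the 4 measured were (Csf1r, Csf2rb and Csf2rb2, all higher), beside 17.4% of all genes, and in RPUV against WTUV none of 5, beside 15.0%. The shares of cells with a Csf2rb UMI after thinning to 2000 UMIs were 13.03%, 32.8% and 39.3%, against 0.102%, 0% and 0.275% of keratinocyte-like cells. Unthinned they were 29.3%, 76.7% and 60.9%, and cells with UMIs of both receptor chains, Csf2ra and Csf2rb, made up 23.9%, 70.8% and 53.6%.

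The higher Csf2rb level was found inside each dendritic-like cluster that WTctrl and WTUV shared. Cluster 10 stood at 146, 198 and 256 CPM, with WTUV at 1.35 times WTctrl (1.12 to 1.64). Cluster 12 stood at 37.8 CPM in WTctrl and 106 CPM in WTUV, a ratio of 2.81 (1.96 to 4.10). Cluster 13 stood at 38.9, 135 and 181 CPM, with ratios to WTctrl of 3.47 (2.28 to 5.50) for WTUV and 4.65 (2.56 to 8.43) for RPUV. Transcripts of macrophages (8 genes such as C1qa and Mrc1) moved in the same direction in these cells, from a sum of 973 CPM in WTctrl to 1436 CPM in WTUV and 2213 CPM in RPUV, against 19282 to 27263 CPM in macrophage- or monocyte-like cells. Of the 8, 4 were past 2-fold higher in WTUV against WTctrl and 5 higher and 1 lower in RPUV against WTctrl, and none was at 0. In cluster 13 that sum was 456, 585 and 1200 CPM. Neutrophil transcripts summed to 118, 232 and 475 CPM, with Ly6g at 0 in all 3 libraries, and keratinocyte transcripts to 360, 215 and 699 CPM. The part of these transcripts in the receptor values was not tested.

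**Figure D4:**
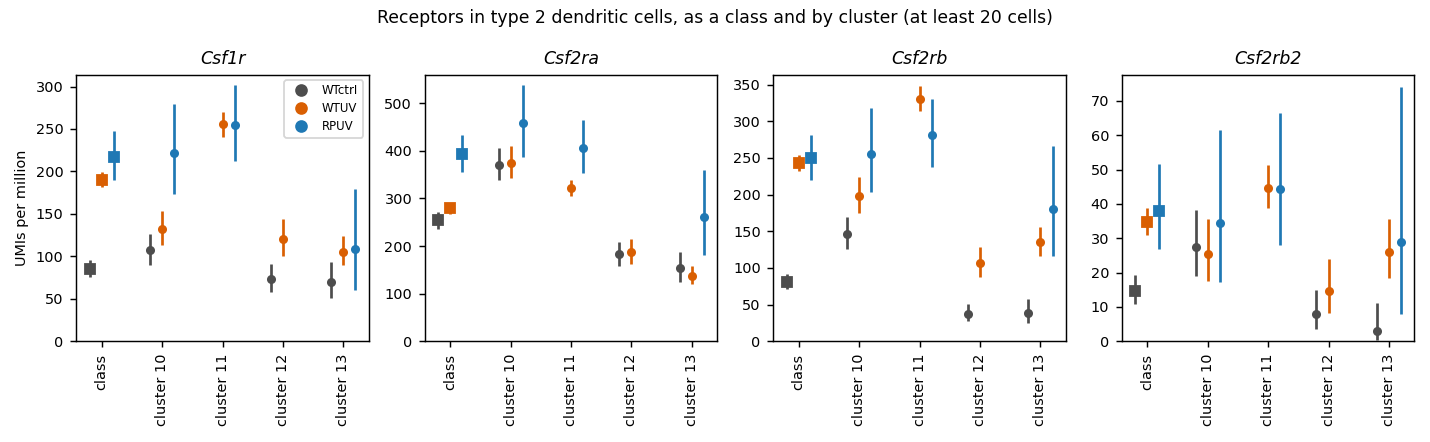
Level of Csf1r, Csf2ra, Csf2rb and Csf2rb2 (CPM, linear axis) in type 2 dendritic-like cells by library, for the class as a whole (squares) and for clusters 10 to 13 (circles, at least 20 cells), with 95% counting intervals. Csf2rb lies at 81.1 CPM in WTctrl and at 243 and 249 CPM in the irradiated libraries, while Csf2ra runs from 254 to 394 CPM.

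In macrophage- or monocyte-like cells, Csf2rb stood at 74.1 CPM (68.0 to 80.6), 98.3 CPM (94.7 to 102) and 65.0 CPM (60.3 to 70.0). WTUV was highest there, at 1.33 times WTctrl (1.21 to 1.46), and RPUV was at 0.661 times WTUV (0.607 to 0.719). Inside clusters the ratio of WTUV to WTctrl had no single direction, from 0.571 in cluster 0 to 1.38 in cluster 1. Langerhans-like cells stood at 140, 275 and 379 CPM, with RPUV at 2.72 times WTctrl (1.70 to 4.31), the opposite order to Csf2ra in the same cells. Clusters 101 and 102 held 40 and 26 of the WTctrl cells, and cluster 100 held 50 WTUV and 21 RPUV cells. With libraries summed, Csf2rb stood at 92.2, 271 and 295 CPM in clusters 101, 102 and 100. Macrophage transcripts in Langerhans-like cells summed to 388, 1039 and 3098 CPM by library. The part of clusters and of these transcripts was not tested. The highest levels of Csf2rb were those of basophil-like cells, which use it as part of the IL-3 receptor, at 1044 CPM in WTUV and 1222 CPM in RPUV, the latter on 5 cells. Mast-like cells stood at 323, 584 and 389 CPM, mature dendritic-like cells at 75.1, 327 and 328 CPM (the last on 3 UMIs) and endothelial-like cells at 211, 131 and 212 CPM.

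Csf2rb2, the beta chain of the IL-3 receptor, differed between libraries in dendritic-like but not in macrophage-like cells. Macrophage- or monocyte-like cells held 19.99, 22.01 and 22.04 CPM, with a ratio of 1.10 (0.917 to 1.33) for WTUV against WTctrl. They did not differ beyond counting error, whereas type 2 dendritic-like cells stood at 14.6, 34.7 and 37.8 CPM, with ratios to WTctrl of 2.38 (1.75 to 3.30) and 2.59 (1.66 to 4.04). Inside cluster 10 the levels were 27.4, 25.5 and 34.3 CPM, and WTUV against WTctrl was 0.928 (0.562 to 1.53), so the difference of the class was not found there. In cluster 13 they were 3.11 CPM on 2 UMIs, 26.0 CPM and 28.9 CPM, and the ratio of WTUV to WTctrl was 8.37 (2.16 to 71.6). Endothelial-like cells stood at 116, 70.1 and 148 CPM, mast-like cells at 53.9, 199 and 227 CPM and basophil-like cells at 420 CPM in WTUV and 407 CPM in RPUV. The pair of beta chains are near copies of each other, but of the last 500 transcript bases, where the reads of this protocol fall, only 10.2% of the 60-base runs of Csf2rb and 2.83% of those of Csf2rb2 are found in the other, so that some reads may be shared between them.

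Csf3, the G-CSF gene, was not seen in WTctrl and was rare in both irradiated libraries. It had 0 UMIs in WTctrl (0 CPM, 0 to 0.143), 23 UMIs in 9 cells of WTUV (0.356 CPM, 0.226 to 0.535) and 33 UMIs in 18 cells of RPUV (1.13 CPM, 0.780 to 1.59). Against a floor of 3 counts in WTctrl, WTUV was at least 3.06-fold and RPUV at least 9.74-fold higher, and RPUV was at 3.18 times WTUV (1.81 to 5.67). The order of the libraries was that of their neutrophil-like cells, yet few of the reads came from such cells in RPUV. In WTUV 15 of the 23 UMIs lay in 2 cells, a neutrophil-like cell with 8 and a cell of an unnamed cluster with 7. In RPUV 17 UMIs lay in 7 macrophage-like cells, all of cluster 23, and 9 in 5 endothelial-like cells, all of cluster 64, against 3 UMIs in the neutrophil-like class. Without the highest cell of each library, RPUV against WTUV was 3.99 (2.05 to 8.07), whereas as a mean over cells of CPM per cell it was short of 2-fold, at 0.71 in log2.

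Csf3r, the receptor for G-CSF, was highest in neutrophil-like cells and lowest there in RPUV. The levels were 1036 CPM (713 to 1454) from 33 UMIs in WTctrl, 1596 CPM (1427 to 1780) in WTUV and 671 CPM (619 to 726) in RPUV. In this classing WTUV was highest, RPUV was at 0.420 times WTUV (0.367 to 0.482), and Csf3r was the only 1 of the 6 members measured in this class past 2-fold in that comparison, beside 19.1% of all genes. RPUV was at 0.648 times WTctrl (0.456 to 0.949), a value that rests on 20 WTctrl cells. The place of WTctrl was not stable: WTUV against WTctrl was 0.62 in log2 as given, -0.50 with each library clustered by itself and -0.90 with classes from the marker UMIs of each cell, and RPUV against WTctrl was 0.04 with median-of-ratios scaling. In cluster 50 alone the levels were 1589 CPM in WTUV and 767 CPM in RPUV, a ratio of 0.483 (0.365 to 0.632). After thinning to 1000 UMIs, 9 of 15 cells in WTctrl, 72.1% of 61 in WTUV and 44.2% of 504 in RPUV held a Csf3r UMI. At 2000 UMIs 90.7% of 54 cells in WTUV and 71.8% of 110 in RPUV did, against 9.52% and 4.32% of macrophage- or monocyte-like cells, and without thinning 10 of 20 neutrophil-like cells in WTctrl, 77.3% in WTUV and 57.4% in RPUV did. Summed neutrophil transcripts stood at 29910, 33921 and 47526 CPM in these cells. The genes of this sum were also markers that named the class, so they give no separate check on Csf3r.

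In whole libraries the order for Csf3r was 13.1, 34.3 and 41.2 CPM, with RPUV highest, the reverse of the order per neutrophil-like cell between the irradiated libraries. Macrophage- or monocyte-like cells stood at 36.6, 52.0 and 23.0 CPM, where RPUV was at 0.442 times WTUV (0.385 to 0.506), so that both classes held less Csf3r in RPUV than in WTUV. Type 2 dendritic-like cells stood at 2.73 CPM on 9 UMIs, 17.4 CPM and 8.73 CPM on 9 UMIs. Other members in neutrophil-like cells did not follow Csf3r: Csf2ra stood at 202 and 249 CPM and Csf2rb at 345 and 301 CPM in WTUV and RPUV.

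**Figure D5:**
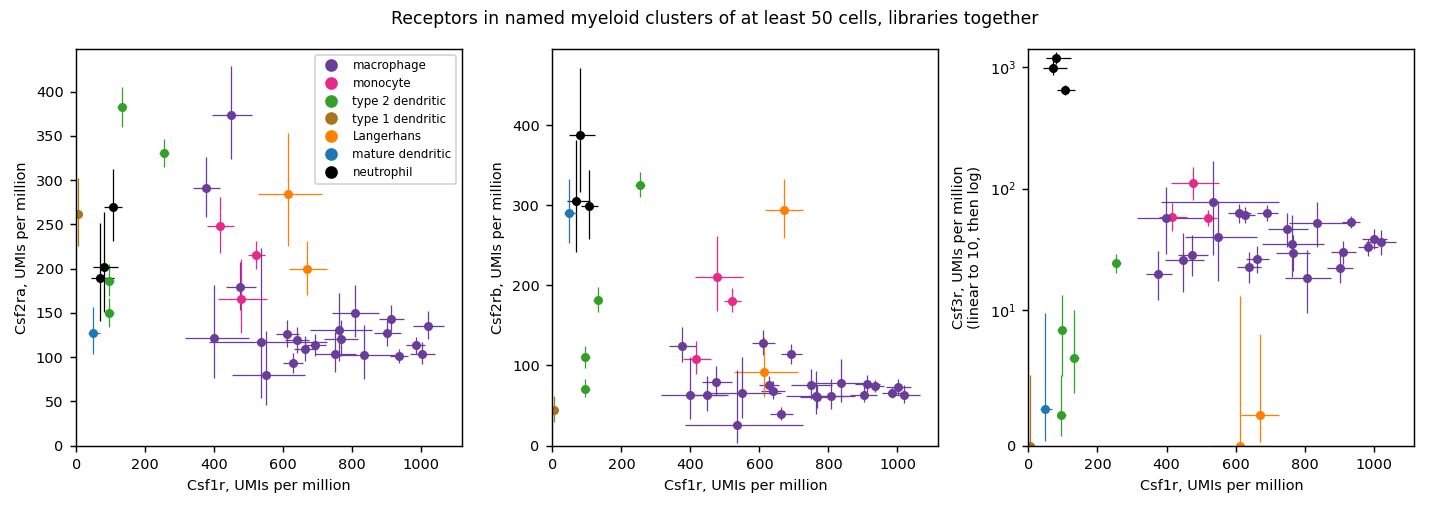
Level of Csf2ra, Csf2rb and Csf3r (CPM) against that of Csf1r in each named myeloid cluster of at least 50 cells, with the UMIs of the 3 libraries summed and 95% counting intervals. Neutrophil-like clusters (48, 49 and 50) lie apart at low Csf1r and at Csf3r levels of 646, 980 and 1188 CPM, and macrophage-like clusters lie at high Csf1r and low Csf3r.

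The genes most like each member across cells were found over 39 profiles, each the sum of 1 class in 1 library with at least 20 cells, by Pearson's correlation of log2(CPM + 1). The profiles share libraries and depth, so the values are a description. Csf3r was closest to Ccr1 (0.931), Cd300lb (0.920) and Cyp4f18 (0.896), and Il34 to Ccdc3 (0.908), Tead3 (0.903) and Mfap3l (0.902). Csf2rb and Csf2rb2 were each other's closest gene at 0.900, followed for both by Rac1 (0.851 and 0.854). Csf1r was closest to Alox5 (0.874), B4galt6 (0.822) and Clec4n (0.811), and Csf2ra to Cd300c2 (0.846), Spi1 (0.841), the PU.1 gene, and Rnase6 (0.841). Csf1 and Csf2 had looser matches, led by Egr1 at 0.792 and Rab37 at 0.756. Csf3 had too few UMIs for this measure.

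The other genes of the pathway were counted in macrophage- or monocyte-like cells as past 2-fold out of those measured. Of all genes in this class, 10.4% were past 2-fold in WTUV against WTctrl, 11.5% in RPUV against WTUV and 13.7% in RPUV against WTctrl. Of 12 genes of Jak-Stat signalling below the receptors, 4 were higher and 0 lower in WTUV against WTctrl, with a median log2 ratio of 0.51 beside 0.03 over all genes. In RPUV against WTUV 0 were higher and 2 lower, and in RPUV against WTctrl 4 were higher and 0 lower. Cish, which STAT5 induces and which dampens cytokine receptor signals, stood at 1.64, 25.7 and 7.44 CPM. Pim1, a kinase also induced by STATs, stood at 108, 344 and 123 CPM, and Socs3 at 45.9, 102 and 130 CPM. Cish and Pim1 were highest in WTUV and lowest in WTctrl, and Socs3 was highest in RPUV. Csf2 was also highest in WTUV but lowest in RPUV, and a link between these genes was not tested.

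Of 12 kinases and adaptors below Csf1r, none was past 2-fold in any of the 3 comparisons. Among transcription factors of the myeloid lineage there were 0 of 10 in WTUV against WTctrl, 1 of 11 (lower) in RPUV against WTUV, and 1 higher and 1 lower of 10 in RPUV against WTctrl. Cebpb, a factor of macrophage activation, stood at 272, 527 and 583 CPM and Irf4 at 35.6, 35.2 and 13.6 CPM. Of the genes known to induce Csf2 and Csf3, 3 of 6 were higher in WTUV than in WTctrl and none lower, 2 higher and 1 lower of 7 in RPUV against WTUV, and 5 higher and 1 lower of 6 in RPUV against WTctrl. Il1b stood at 66.4, 414 and 239 CPM and Tnf at 20.3, 83.2 and 68.7 CPM, both highest in WTUV, whereas Tslp stood at 53.3, 44.5 and 19.8 CPM. Other haematopoietic growth factors and receptors had 0 higher and 1 lower of 8, 1 and 2 of 7, and 0 and 1 of 6 in the same order of comparisons. Kitl, the ligand of Kit, stood at 32.3, 8.70 and 18.0 CPM and Cx3cr1 at 22.5, 22.05 and 4.56 CPM. Of the cytokines and receptors that share the beta chain, only Il3ra was measured in these cells, and it was not past 2-fold.

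Signs of stress and of free RNA moved with some of these values in macrophage- or monocyte-like cells. Of 12 genes induced by tissue dissociation, 3, 1 and 4 were higher in the 3 comparisons and none lower, and their sum was 4179, 6638 and 7573 CPM. Of 8 keratinocyte transcripts, 0 were higher and 2 lower, 2 and 0, and 1 and 2. Of fibroblast transcripts 0 were higher and 6 lower, 1 and 0, and 0 and 5 of 7. Of neutrophil transcripts 2 were higher and 0 lower of 3, 5 and 1 of 7, and 6 and 1 of 7, and their sum was 99.3, 78.6 and 123 CPM, far below the 29910 to 47526 CPM of neutrophil-like cells. Of 8 macrophage transcripts none was past 2-fold. The part of these in the receptor values was not tested.

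In neutrophil-like cells, RPUV against WTUV, 2 of 10 Jak-Stat genes were higher and none lower. In this class and comparison 19.1% of all genes were past 2-fold, the share beside which all counts here stand. Socs3, which limits signals of the G-CSF receptor, stood at 537 CPM in WTUV and 1133 CPM in RPUV. Bcl2l1, a survival gene, had 1 UMI in the 75 WTUV cells and 28 UMIs in the 571 RPUV cells. Socs3 was thus higher in the library where Csf3r was lower in these cells. Of the inducers of Csf2 and Csf3, 2 of 5 were higher: Il23a stood at 24.6 and 233 CPM and Il1a at 29.6 and 80.5 CPM. Of the kinases and adaptors 1 of 11 was lower, Pik3r1, at 118 and 36.5 CPM, of the transcription factors 1 of 9 was higher, and of 3 growth factors none was past 2-fold. Of dissociation stress genes 3 of 12 were lower and none higher, macrophage transcripts were higher for 4 of 7, keratinocyte transcripts 1 higher and 2 lower of 8, and of 7 neutrophil transcripts none was past 2-fold.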

How the data were processed

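Single-cell RNA sequencing was done on 3 libraries of CD45-enriched dorsal skin cells, 1 per group. The authors used Cell Ranger 6.1.1 (version from the matrix header) and mm10 (submitters' processing notes) and deposited filtered matrices of unnormalized UMI counts. Cells with 200 to 4000 genes (6000 in WTUV) and under 10% mitochondrial counts were kept, which are the limits of the study. No doublet caller was run for the main values. Libraries were integrated on 3000 features and 30 dimensions (Seurat 5.3.0, sctransform 0.4.2, R 4.3.3) and clustered at resolution 0.8, and large clusters were split again (scanpy 1.11.5, leidenalg 0.10.2, Python 3.11.15). Clusters were named from 214 markers in 27 panels, and the naming thresholds were set after the clusters had been seen. Clusters that failed them stayed unnamed, 12.2% of cells in WTctrl, 15.4% in WTUV and 17.1% in RPUV.

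Raw counts were summed per class and library and divided by the summed UMIs (CPM). Intervals were exact Poisson for levels, Clopper-Pearson for ratios and Wilson for shares (scipy 1.17.1). Thinning drew 1000 or 2000 UMIs per cell and left out shallower cells. Ratios were checked on simulated counts. No p-value was computed, since each group held 1 library. Genes of the 11 lists were named as the up to 4 with the largest ratio in macrophage- or monocyte-like and neutrophil-like cells, and other genes were named after their values were seen. The members, classes and lists were chosen with earlier results of these data known. Alternatives comprised other scalings, cell filters, classings and thresholds. The files held 0 columns of other series.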

Additional observations from a re-analysis of the deposited data

Results flagged for a closer look

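Receptors that stood on opposite sides of WTctrl in macrophage- or monocyte-like and in type 2 dendritic-like cells are given here, each with a counting interval that excludes 1. For Csf1r, WTUV against WTctrl was 0.818 in macrophage- or monocyte-like cells and 2.23 in type 2 dendritic-like cells, and RPUV against WTctrl was 0.762 and 2.55. For Csf2ra the ratios were 0.846 and 1.10 for WTUV against WTctrl and 0.896 and 1.55 for RPUV against WTctrl. The value of 1.10 was not found inside dendritic-like clusters 10, 12 and 13, where every interval for WTUV against WTctrl included 1. For Csf2rb in RPUV against WTctrl they were 0.878 and 3.07. With 1 library per group, the difference between the classes was not tested.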

How the results depend on the processing

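No paired analysis was possible because each group held 1 library. Each of 48 ratios was recomputed under other scalings, cell filters, doublet cuts and classings, which gave 251 values: 238 kept the direction of the reported ratio, 190 lay inside its counting interval and 24 fell on the other side of 2-fold. The count of members past 2-fold in WTUV against WTctrl, 2 as reported, became 4 with median-of-ratios scaling (Csf1 and Csf3r added) and 1 without the 5% of cells with the highest doublet scores (Csf2). In RPUV against WTctrl the count, 3 as reported, became 5 with classes from each library clustered by itself (Csf1 and Csf3r added). Of the 13 values with the other direction, most were of ratios short of 2-fold. Those that turned for Csf3r in neutrophil-like and Csf1 in fibroblast-like cells stand beside these results. Ratios past 2-fold also turned, in log2: Csf1 in whole libraries, WTUV against WTctrl, from -1.04 to 0.10 as a mean per cell, Csf2rb2 in type 2 dendritic-like cells, WTUV against WTctrl, from 1.25 to -0.11 in cluster 10, and Il34 in keratinocyte-like cells, RPUV against WTctrl, from -1.08 to 0.15 in cluster 37. The values by cluster, by epidermal layer and without the highest cell were added after the data had been seen. The causes were not tested. Depth limited Csf2 in RPUV (6 UMIs), Csf3 in every library and all neutrophil-like values of WTctrl (20 cells).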

Other observations

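The genes below the receptors in type 2 dendritic-like cells were named after their values were seen. Of 12 Jak-Stat genes, 3 were past 2-fold higher and none lower in WTUV against WTctrl, and none was past 2-fold in RPUV against WTUV, beside 9.65% and 15.0% of all genes in this class. Cish stood at 29.8, 124 and 98.0 CPM in WTctrl, WTUV and RPUV, and Socs2, which STAT5 also induces, at 2.73, 20.4 and 28.1 CPM. Both were lowest in WTctrl, as were Csf2rb and Csf1r in these cells. Cebpb stood at 58.0, 315 and 507 CPM. Flt3, the growth factor receptor that dendritic cells depend on, went the other way at 147, 91.6 and 26.2 CPM. Flt3 is also a marker that named this class, so the class was less marked by it in RPUV. The part of this in the receptor values was not tested. Irf8, a transcription factor of dendritic cells, stood at 46.8, 74.2 and 12.6 CPM. The sum of 12 dissociation stress genes was 11924, 9857 and 8524 CPM.

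Over whole libraries, the genes known to induce Csf2 and Csf3 counted 5 higher and 1 lower of 10 in WTUV against WTctrl, 4 higher and 2 lower of 10 in RPUV against WTUV, and 5 higher of 9 in RPUV against WTctrl, beside 21.1%, 26.0% and 16.3% of all genes past 2-fold. These values move with the cell make-up of the libraries. Il17a, a cytokine of gamma delta T cells, had 3, 171 and 34 UMIs and Il17f 3, 143 and 2 UMIs. Il5, which signals through the shared beta chain, had 5, 68 and 0 UMIs, and Il3 had none in any library. These are raw UMIs, not scaled to the library totals of 25795684, 64556621 and 29128981 UMIs. Il23a stood at 0.969, 1.44 and 11.2 CPM and Il1b at 352, 721 and 1515 CPM, both highest in RPUV.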
